A study of Mus musculus with 2 samples.

Results

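The genes described here are 51 mouse genes of the cell division cycle and of DNA replication, chosen by symbol: 32 of them act in G1 and S phase and 19 in G2 and mitosis. Each was read from every probe set whose annotation carries that symbol and no other, which gave 90 probe sets for 49 of the 51 genes, on an array that represents 12393 genes. E2f2, an activating E2F factor, and Ccnb1, the cyclin B1 gene, had no such probe set. A gene was counted as measured when its probe set reached a signal of 44.0 on at least 1 array. This floor is the 50th percentile of all gene probe set signals and is a convention, not a detection limit. Cdk6, a kinase partner of the D-type cyclins, stayed below it with signals of 19.1 and 13.2, as did the 3 probe sets of Tyms, the thymidylate synthase gene, for which a further probe set listed with a pseudogene was not used. This left 47 measured members, 29 of G1 and S phase and 18 of G2 and mitosis.

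RNA was taken from RAW 264.7 cells, a mouse macrophage-like line established from a virus-induced tumour, which keeps dividing in culture. Both groups of cells received IFNg at 1000 U/ml for 4 h, and 1 of the groups received adenosine at 300 uM as well. Each group is 1 Affymetrix array, without replicates, hybridized with the combined RNA of 2 experiments, and cells without IFNg were not analysed here. No test across samples is possible with this design, and all differences below compare these 2 arrays.

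In a dividing cell, D-type cyclins with CDK4 or CDK6 phosphorylate the retinoblastoma protein and its relatives, which releases E2F factors to activate the genes of DNA replication. Origins are licensed in G1 when ORC, CDC6 and CDT1 load the MCM helicase, and cyclin E with CDK2 then starts S phase. CDK1 with A-type and B-type cyclins drives entry into mitosis, where PLK1 and the Aurora kinases build the spindle and CDC20 with the anaphase-promoting complex ends it. IFN-gamma is known to slow the division of mouse macrophages, and adenosine acts on G protein-coupled receptors of the cell surface.

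Signals were generally lower on the adenosine array. The median log2 ratio of deposited signals was -1.50, and the signals of this array were multiplied by 2.82 to remove that shift. Spiked-in hybridization controls lay 0.97 above it on the log2 scale, so the level that stands for no difference depends on the scaling chosen. Before scaling, 46 of the 47 measured members had a lower signal with adenosine. No share of all genes lower by any amount is given beside this count. At 2-fold, 36 members were lower in the deposited values, beside 78.8% of all genes, so that count does not stand out from the array. Every ratio below is adenosine with IFNg over IFNg alone, relative to the array median, unless it is called deposited. All 8 macrophage markers were measured (signals from 262 to 6444 with IFNg and from 254 to 13361 with adenosine), and none of 25 markers of T cells, B cells, fibroblasts, epithelium, endothelium and granulocytes was, their signals lying between 0.40 and 28.2 with IFNg and between 0.282 and 28.8 with adenosine. In RNA of a whole culture, a different share of cells in a phase of the cycle and a different amount of RNA per cell cannot be told apart. The spread available for a single log2 ratio is that between the 2 brightest probe sets of 1 gene above the floor on both arrays. Given per probe set, its SD was 0.52 over 2375 genes and 0.55 over the 19 members that allow it. Differences between cultures or between hybridizations are not part of this SD, and signals below the floor are not covered by it.

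The phase groups differ in the sequence of their promoters. Windows from 250 bases before to 50 after the annotated start were taken from RefSeq on GRCm38.p6, where 41 of the 51 genes had 46 windows. Ccna2, Kif20a, Aurkb, Ccnd1, Ccne2, Mcm4, Rb1, Ccnd2, Gmnn and Cdc25c had no entry. Letters of an E2F site (TTTCCCGC, TTTCGCGC, TTTGCCGC or TTTGGCGC on either strand, which may overlap a match on the other strand) were present in 12 of 26 G1 and S genes, in 1 of 15 G2 and mitosis genes and in 3.29% of 17491 protein-coding genes. The order was the opposite for the cell cycle genes homology region, or CHR (TTTGAA on either strand), an element bound by the MuvB complexes of late-cycle genes. It was present in 10 of 15 G2 and mitosis genes, 3 of 26 G1 and S genes and 18.5% of protein-coding genes. The CCAAT letters read by NF-Y, also searched on both strands, were in 13 of 15, in 17 of 26 and in 42.3% respectively. A gene with several windows was counted once. These are matches of letters and not measured binding.

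**Figure D1:**
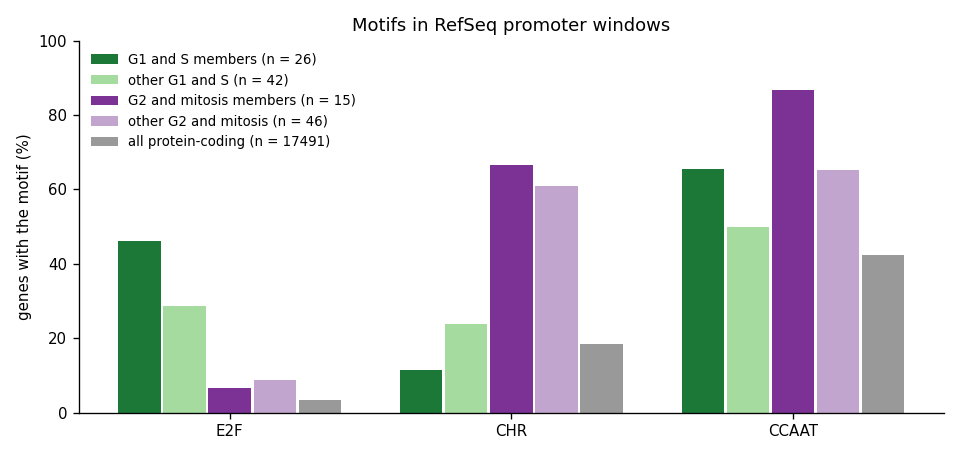
Share of genes, in percent, whose RefSeq promoter window holds the E2F, CHR or CCAAT letters, for the members of each phase group, for other genes of the same phases and for all protein-coding genes. The E2F bar is highest for the G1 and S members (46.2%) and the CHR bar for the G2 and mitosis members (66.7%).

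Windows are printed for the measured members that were at least 2-fold apart between the arrays and held an E2F or CHR match, and for Cdk1, the G2 and mitosis member with both. They run 5′ to 3′ along the gene, in lower case with every E2F, CHR or CCAAT match in capitals. Positions count from the annotated start as 1, with -1 the base before it. Cdc6 (chr11:98907901-98908200, plus strand) has 1 E2F match that begins at -138 and reads GCGGGAAA along the gene. Mcm5 (chr8:75109259-75109558, plus strand) has overlapping E2F matches at -153 and -149. In Rbl1 (chr2:157204485-157204784, minus strand) the E2F match begins at -18. Cdk1 (chr10:69352863-69353162, minus strand) has an E2F match at -131 and CHR letters at -71 and -15. Mki67 (chr7:135716330-135716629, minus strand) has CHR letters at -116 and -98, downstream of its 3 CCAAT matches.
Cdc6: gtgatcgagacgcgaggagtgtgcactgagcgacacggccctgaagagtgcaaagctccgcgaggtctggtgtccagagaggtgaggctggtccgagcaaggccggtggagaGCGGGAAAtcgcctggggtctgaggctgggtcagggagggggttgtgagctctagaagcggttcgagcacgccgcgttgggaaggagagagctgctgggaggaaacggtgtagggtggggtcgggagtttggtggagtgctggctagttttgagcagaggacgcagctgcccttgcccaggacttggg
Mcm5: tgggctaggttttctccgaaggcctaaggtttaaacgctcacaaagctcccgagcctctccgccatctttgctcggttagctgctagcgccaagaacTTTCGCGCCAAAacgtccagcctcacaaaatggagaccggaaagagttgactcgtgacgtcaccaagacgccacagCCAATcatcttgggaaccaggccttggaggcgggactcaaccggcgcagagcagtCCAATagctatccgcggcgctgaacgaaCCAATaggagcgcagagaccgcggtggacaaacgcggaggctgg
Rbl1: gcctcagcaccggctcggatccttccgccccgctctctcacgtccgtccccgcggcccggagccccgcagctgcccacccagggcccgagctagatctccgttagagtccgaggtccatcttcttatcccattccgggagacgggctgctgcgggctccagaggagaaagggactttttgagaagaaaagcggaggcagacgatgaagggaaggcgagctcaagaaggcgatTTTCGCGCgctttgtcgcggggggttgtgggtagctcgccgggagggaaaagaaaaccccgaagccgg
Cdk1: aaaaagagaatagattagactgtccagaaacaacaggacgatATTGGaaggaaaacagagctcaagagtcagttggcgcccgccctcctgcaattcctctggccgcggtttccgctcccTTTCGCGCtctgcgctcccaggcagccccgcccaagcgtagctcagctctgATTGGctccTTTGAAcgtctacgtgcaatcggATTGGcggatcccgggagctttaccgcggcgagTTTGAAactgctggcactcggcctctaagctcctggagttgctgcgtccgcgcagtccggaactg
Mki67: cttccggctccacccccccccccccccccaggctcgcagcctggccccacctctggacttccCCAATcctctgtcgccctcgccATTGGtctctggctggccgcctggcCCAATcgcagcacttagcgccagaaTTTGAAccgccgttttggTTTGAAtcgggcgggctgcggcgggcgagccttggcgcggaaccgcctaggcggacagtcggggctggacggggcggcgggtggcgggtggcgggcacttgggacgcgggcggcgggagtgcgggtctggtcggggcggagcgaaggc

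Array ratios were also set beside the E2F and CHR matches, as a description. Among the G1 and S genes the median log2 ratio was 0.26 in the 11 measured genes with a match and 0.33 in the 12 without, and the genes with a match ran from Rbl1 at the low end (-1.96) to Cdc6 at the high end (1.87), the full range of the phase group. In the G2 and mitosis genes the medians were -0.07 for 10 genes with CHR letters and 0.02 for 4 without.

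Like the genes of the array as a whole, most cell cycle genes were close to the array median, with a few further out at either end. Of the 47 measured members, 3 were at least 2-fold higher with adenosine and 3 at least 2-fold lower. Over all 6818 measured genes, 4.52% were 2-fold higher and 10.1% 2-fold lower, so neither count stands out from the array. In the deposited values the counts became 0 higher and 36 lower, against 0.141% and 78.8% of all genes, and with spiked-in scaling 0 and 18, against 0.473% and 50.7%. At 3-fold the counts were 1 and 1, beside 0.983% and 2.96% of all genes, and at 1.5-fold 8 higher and 7 lower, beside 12.9% and 21.8%. The members past 2-fold were Cdc6, E2f1 and Mcm5 on the higher side and Rbl1, Ccnd2 and Mki67 on the lower. Within 1 SD of probe set scatter of 0 lay 30 of the 47 members (63.8%) and 60.0% of all measured genes, by the pooled SD of 0.52, which is 0.41 in the brightest signal group. By phase it was 15 of the 29 G1 and S genes (51.7%) and 15 of the 18 G2 and mitosis genes (83.3%).

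The phase groups were displaced from each other. The 29 G1 and S genes had a median log2 ratio of 0.26, which turns to -1.20 in the deposited values and -0.71 with spiked-in scaling, and the 18 G2 and mitosis genes had a median of -0.07, against -0.08 for all measured genes. The distance between both medians was 0.32. A shift common to all genes moves it only through the floor: it was 0.36 in the deposited values and 0.32 with spiked-in scaling. It was between 0.21 and 0.45 in all 10 settings of scaling, floor and probe set choice that were run. Above 0 lay 19 of the 29 G1 and S genes and 9 of the 18 G2 and mitosis genes, against 44% of all genes. Above the median of all measured genes lay 22 of 29 and 9 of 18. With 1 array per group this distance has no test and no error of its own.

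**Figure D2:**
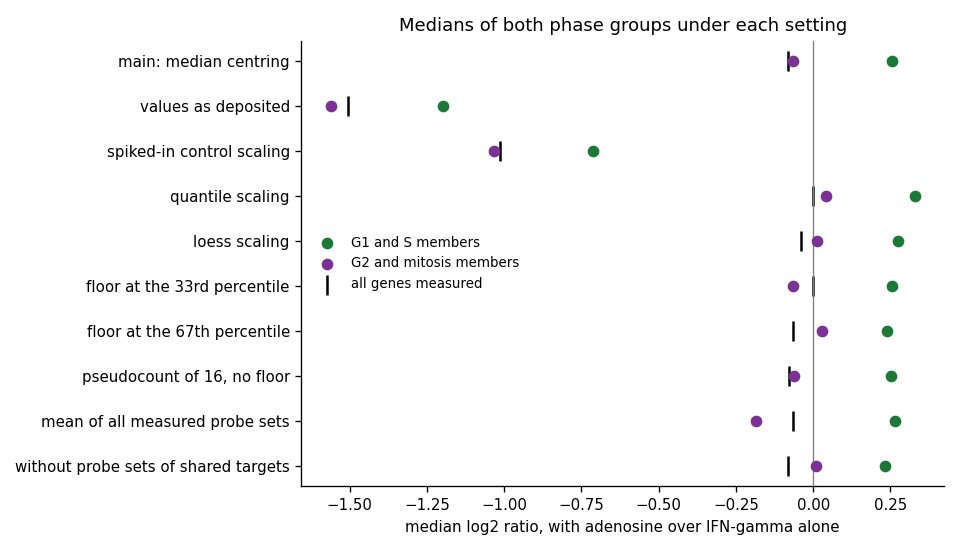
Median log2 ratio (horizontal axis, adenosine with IFNg over IFNg alone) of the 29 G1 and S members, the 18 G2 and mitosis members and all measured genes (black ticks) under the main setting and 9 alternatives, some of which measure other numbers of members. The G1 and S point lies to the right of the G2 and mitosis point in every row, while both move below 0 in the deposited values (-1.20 and -1.56) and with spiked-in scaling (-0.71 and -1.03).

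Signal level moves with the ratios on these arrays and differs between the phase groups. The measured genes were divided by mean signal into 4 bins of equal size. In the brightest bin the median log2 ratio was 0.0073, against -0.12, -0.14 and -0.11 in the others from dim to bright. The brightest bin held 12 G1 and S members with a median of 0.40 and 11 G2 and mitosis members with a median of 0.13. In the next bin down the order was the opposite, at -0.04 for 7 G1 and S members and 0.01 for 5 G2 and mitosis members. With loess scaling, which removes the dependence on signal, the distance between both medians was 0.26.

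**Figure D3:**
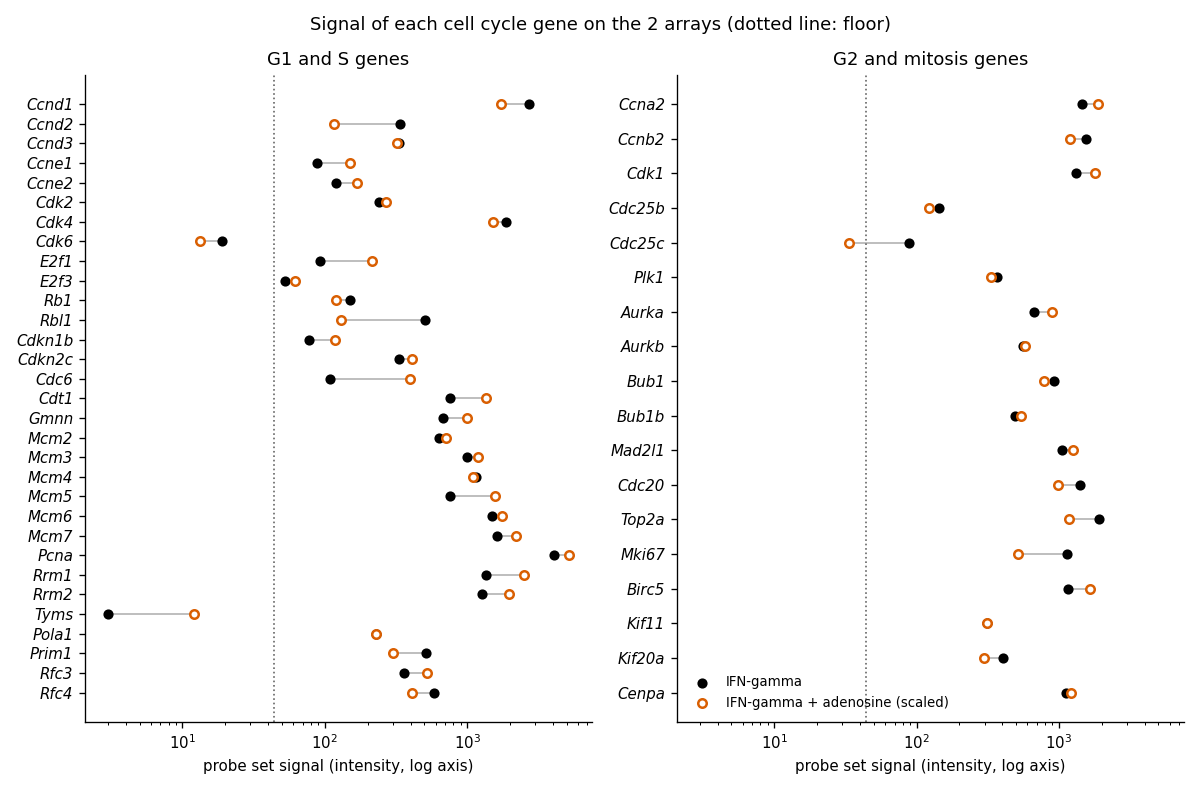
Signal on a log axis of the brightest probe set of each of the 49 members on the array, for IFNg alone (black) and IFNg with adenosine after scaling (open orange circles), with the floor of 44.0 dotted. Cdk6 and Tyms lie left of the floor on both arrays, and Cdc6, E2f1, Rbl1, Ccnd2, Mcm5 and Mki67 show the widest gaps among members above it on both. With no scaling, every measured member but Cdc6 would have its open circle left of its black one.

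Of the D-type cyclins, which link growth signals to the cycle, Ccnd2 and Ccnd1 were lower with adenosine and Ccnd3 was near 0. Ccnd2 went from 338 with IFNg to 116 with adenosine, 2.91-fold lower (log2 ratio -1.54). The other 4 measured probe sets were also below 0. For 2 of them the log2 ratio was -2.37 and -0.92, and for the other 2 the adenosine signal was below the floor, which bounds the ratio at -1.78 and -0.42 or lower. A further 2 were below the floor on both arrays. Ccnd1, the cyclin D1 gene, was at 2739.7 and 1729, a log2 ratio of -0.66, with its other probe sets at -0.67 and -1.42. Ccnd3 differed little, at 332 and 323 (log2 ratio -0.04), and turns positive with quantile and loess scaling. Cdk4, their kinase partner, was at 1859 and 1529, and its 3 probe sets lay close together, from -0.41 to -0.28.

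The cyclin E genes, which act after the D type, lay on the other side. Ccne1, which encodes cyclin E1, was at 87.4 and 151 (log2 ratio 0.79), and Ccne2 at 120.4 and 169 (log2 ratio 0.49), each from a single probe set and each negative in the deposited values. Both signals were low: with the floor at the 67th percentile Ccne2 was at 0.04 and Ccne1 was not measured. Cdk2, the kinase of cyclin E, was at 239 and 268 (log2 ratio 0.17), and like Ccne2 it lay within the scatter of 0. Of the 7 measured G1 cyclins and kinases 3 lay above 0, close to the 44% of all measured genes.

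E2F factors and pocket proteins held the widest disagreement. E2f1, an activating E2F factor and itself an E2F target, was at 92.3 and 214, 2.31-fold higher (log2 ratio 1.21, -0.28 in the deposited values). Its second probe set was below the floor on both arrays, and with the floor at the 67th percentile the log2 ratio was 0.37, so the fold rests on 1 probe set of low signal. E2f3, another activating factor, was at 52.6 and 61.7, near the floor on both arrays. Rb1, the retinoblastoma gene, was at 151 and 119.8 (log2 ratio -0.34). Rbl1, which encodes the pocket protein p107, was 3.89-fold lower by its brightest probe set (505 against 129.7, log2 ratio -1.96), but its other probe set had a log2 ratio of 0.60, on the opposite side. Their mean, -0.68, no longer reaches 2-fold. The CDK inhibitor genes Cdkn1b, for p27, and Cdkn2c, for p18, were above 0 at 0.59 and 0.30 (-0.90 and -1.20 in the deposited values), and the signals of Cdkn1b were low (77.9 and 118).

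Of the 9 origin licensing genes, whose log2 ratios had a median of 0.45, 8 lay above 0 and 2 were at least 2-fold higher, beside 44% and 4.52% of all measured genes. The first count depends on the probe set rule. By the mean of all measured probe sets Mcm2 (-0.14) and Mcm6 (-0.003) lay below 0 and Mcm4 (0.22) above it. In the deposited values all 9 licensing genes but Cdc6 were lower with adenosine. Cdc6, the ATPase that loads the MCM helicase with ORC, was at 108 and 396, 3.66-fold higher (log2 ratio 1.87). It was the one measured member with a higher deposited signal as well (140.5, log2 ratio 0.38), and it kept at least 2-fold in the 7 settings that could measure it other than the deposited values and spiked-in scaling, with log2 ratios from 1.26 to 1.98. It has a single probe set on the array. Cdt1, which works with CDC6, was at 762 and 1356 (log2 ratio 0.83, second probe set 0.41). Gmnn, the geminin gene, whose product holds CDT1 inactive after licensing, lay on the same side at 677 and 1003 (log2 ratio 0.57).

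The 6 subunits of the MCM helicase form 1 ring, and their transcripts did not differ by the same amount. Mcm5 went from 754 to 1569, 2.08-fold higher (log2 ratio 1.06, -0.44 in the deposited values), by its single probe set. Mcm7 was at 1618 and 2205 (log2 ratio 0.45), and all 4 of its probe sets were above 0, up to 1.11. Mcm3 had a log2 ratio of 0.26 by its brightest probe set (1002 and 1196), while others gave values from -0.24 to 1.13. Mcm2, Mcm4 and Mcm6 were at 0.18, -0.05 and 0.24, and a second probe set of each lay on the other side of 0, at -0.45, 0.49 and -0.25. For these 3 subunits and Mcm3 the direction therefore depends on the probe set read. The median of the 6 was 0.25.

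Genes of the replication fork and of nucleotide supply were split. Both ribonucleotide reductase subunits, which make deoxyribonucleotides, lay above 0: Rrm1 at 1364 and 2517 (log2 ratio 0.88, second probe set 0.68) and Rrm2 at 1273 and 1956 (log2 ratio 0.62, others 0.33 and 1.19). Pcna, the sliding clamp, was at 4042 and 5191 (log2 ratio 0.36, but 0.17 with quantile and 0.05 with loess scaling). These directions turn in the deposited values, where Rrm1 was at -0.61, Rrm2 at -0.88 and Pcna at -1.13.

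Of the enzymes that start new strands, Prim1 lay below 0 and Pola1 near 0. Prim1, the catalytic subunit of primase, was at 517 and 301, a log2 ratio of -0.78 with a second probe set at -0.75. Pola1, the DNA polymerase alpha subunit of the same complex, was at 229.9 and 228 (log2 ratio -0.01). It turned to 0.10 with quantile and 0.08 with loess scaling. Of the clamp loader subunits, Rfc4 was below 0 by both probe sets (-0.50 and -0.60), whereas Rfc3 was at 0.54 and -0.01. The subgroup of 7 measured genes had a median of 0.36 with 4 members above 0 and none at 2-fold. Over all measured genes, 44% lay above 0, 4.52% were 2-fold higher and 10.1% 2-fold lower.

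**Figure D4:**
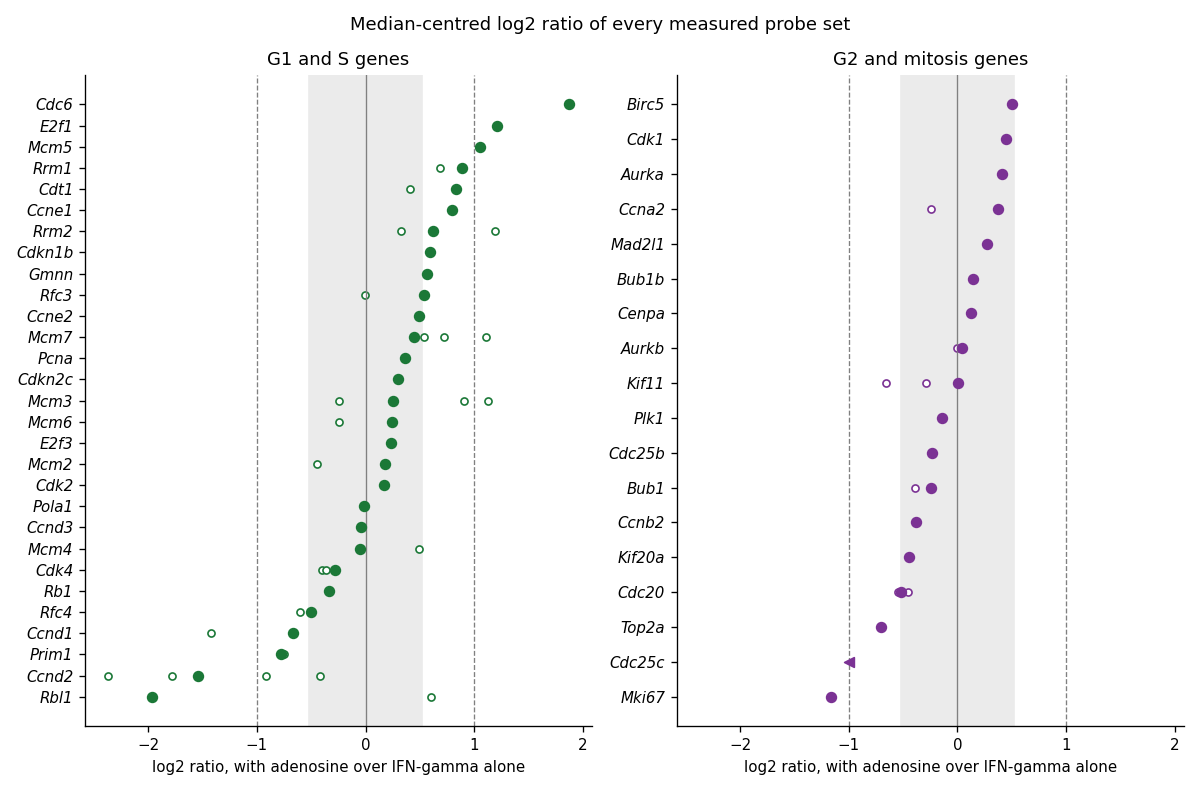
Log2 ratio (adenosine with IFNg over IFNg alone, after median centring) of every measured probe set of each member, with the brightest filled and the others open. The grey band is 1 SD of probe set scatter (0.52), dashed lines mark 2-fold, and the triangle marks a brightest probe set limited by the floor. Open circles of Ccnd2 at -1.78 and -0.42 and of Bub1 at -0.39 are limited by the floor too. The G1 and S genes spread from -1.96 to 1.87 and the G2 and mitosis genes from -1.16 to 0.50, and for Rbl1, Mcm3 and Kif11 open circles lie far from the filled one; in the deposited values every filled symbol but that of Cdc6 falls below 0.

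The 18 genes of G2 and mitosis lay between -1.16 and 0.50 on the log2 scale, and the 29 of G1 and S between -1.96 and 1.87. Mki67, the gene of the proliferation antigen Ki-67, was the 1 member past 2-fold, at 1146 and 512, 2.24-fold lower (log2 ratio -1.16). It has 1 probe set and stayed at least 2-fold lower in every setting run. Top2a, the topoisomerase that untangles chromosomes, was next among members above the floor on both arrays, at 1925 and 1181 (log2 ratio -0.70). Birc5, which encodes survivin, a subunit of the chromosomal passenger complex, lay at the other end at 1161 and 1645 (log2 ratio 0.50, -0.99 in the deposited values).

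CDK1 and its partners lay on both sides of 0. Cdk1 was at 1317 and 1794 (log2 ratio 0.45) and Ccna2, the cyclin A2 gene, at 1443 and 1871 (log2 ratio 0.37), although a second probe set of Ccna2 gave -0.25. Ccnb2, the B-type cyclin that could be read, was below 0 at 1553 and 1194 (log2 ratio -0.38). The positive values among these turn negative in the deposited values. The phosphatase gene Cdc25c went from 87.9 to 33.5, below the floor, which makes it at least 1.998-fold lower, just short of the threshold, and its relative Cdc25b was at 143 and 122 (log2 ratio -0.23).

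Of the mitotic kinases, Plk1 and Aurkb lay near 0. Aurka lay above it, within 1 SD of probe set scatter, and at -1.09 in the deposited values. Plk1 was at 366 and 331 (log2 ratio -0.14), Aurkb at 556 and 574 (log2 ratio 0.04), and Aurka, the spindle pole kinase, at 669 and 888 (log2 ratio 0.41). The spindle checkpoint genes that delay anaphase lay close to 0 as well, with Bub1 at -0.24, Bub1b at 0.15 and Mad2l1 at 0.27. Cdc20, which the checkpoint restrains, was at 1397 and 978 (log2 ratio -0.52), and its 3 probe sets gave nearly equal ratios, from -0.54 to -0.46. Of the motor genes, Kif20a was at -0.45 and Kif11 at 0.01, with 2 other probe sets of Kif11 at -0.65 and -0.28. Cenpa, the centromeric histone, was at 1114 and 1219 (log2 ratio 0.13).

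Agreement between probe sets set a limit on how many of these directions could be read. Of 20 members with at least 2 measured probe sets, 11 had all of them on 1 side of 0 and 9 had them on both sides. No such count over all genes is given beside these, so whether 9 of 20 is usual for the array cannot be said. The mixed genes were Rbl1, Mcm2, Mcm3, Mcm4, Mcm6, Rfc3, Ccna2, Aurkb and Kif11. Some straddled 0 only narrowly, such as Aurkb at 0.04 and -0.01. Ccnd1, Ccnd2, Cdk4, Cdt1, Mcm7, Rrm1, Rrm2, Prim1, Rfc4, Bub1 and Cdc20 were read the same way by all of theirs. These sides are relative to the array median: Cdt1, Mcm7, Rrm1 and Rrm2 lay above 0 but were negative in the deposited values. The other 27 measured members, Cdc6, E2f1, Mcm5 and Mki67 among them, rest on 1 measured probe set. Counted over probe sets rather than genes, the median log2 ratio was 0.23 over 54 probe sets of G1 and S genes and -0.24 over 25 of G2 and mitosis genes; probe sets of 1 gene share their transcript and are not independent.

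Further genes of the same phases, chosen with earlier results of these data known and read on the same 2 arrays, lay in the same order. They are not an independent repeat. Of 55 other G1 and S genes 44 were measured, with a median log2 ratio of 0.08, 2 of them at least 2-fold higher and 2 at least 2-fold lower. Of 54 other G2 and mitosis genes 48 were measured, with a median of -0.14, 1 at least 2-fold higher and 3 at least 2-fold lower. The distance between these medians was 0.22, against 0.32 for the members, and all 4 counts are near the array background of 4.52% higher and 10.1% lower or below it.

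The 5 highest of the other G1 and S genes were Slbp, which binds histone transcripts (2.21-fold higher, 834 against 1841), Cdc25a, the phosphatase that activates CDK2 (2.14-fold higher, second probe set 0.38 on the log2 scale), E2f4, a repressing E2F factor, Cdc7, a kinase that fires origins, and Lig1, a DNA ligase, the last 3 with log2 ratios of 0.92, 0.71 and 0.67. All 5 ratios turn negative in the deposited values. At the low end were Orc5, a subunit of the origin recognition complex (2.52-fold lower, 302 against 120.1), and Pola2, the accessory subunit of DNA polymerase alpha (2.03-fold lower), followed by Mcm10, a replisome factor, Rpa3, a subunit of the single-strand binding protein, and Pole, the DNA polymerase epsilon catalytic subunit, at -0.88, -0.87 and -0.84. Pola2 and Prim1 belong to the same polymerase-primase complex.

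In the other G2 and mitosis genes the high end was Chek1, the replication checkpoint kinase, 2.50-fold higher (83 against 207) with a second probe set at 1.18, and Wee1, which inhibits CDK1, with a log2 ratio of 0.75 and a second probe set at 1.30. Ckap2, a spindle-associated protein gene, Tubb5, a beta-tubulin gene, and Cks2, which encodes a CDK-binding subunit, followed at 0.73, 0.61 and 0.53, and all 5 turn negative in the deposited values. The low end was Aspm, a spindle pole protein gene (2.47-fold lower, second probe set -0.05 on the log2 scale), Ect2, which drives cytokinesis (2.18-fold lower), and Ncaph, a condensin subunit (2.05-fold lower, second probe set 0.06). Ttk, a spindle checkpoint kinase, and Ncapg, another condensin subunit, had log2 ratios of -0.83 and -0.80.

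**Figure D5:**
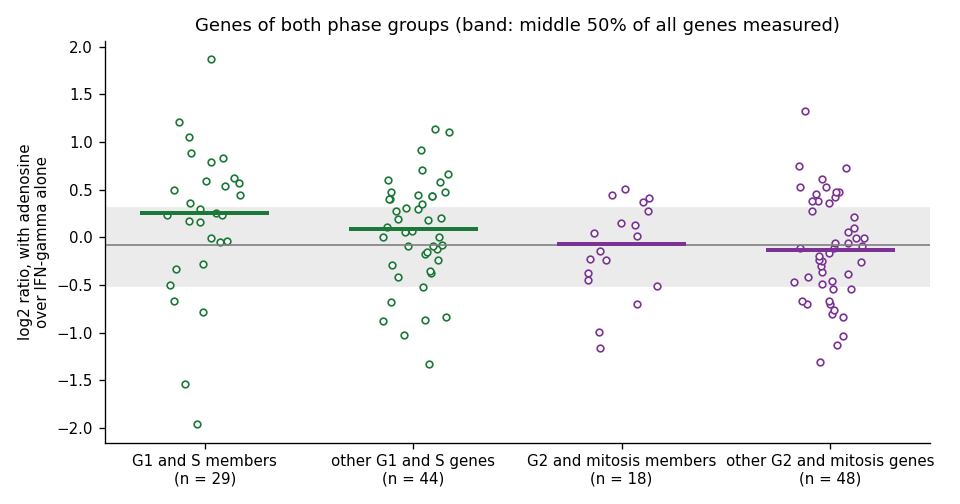
Log2 ratio (adenosine with IFNg over IFNg alone, after median centring) of each measured member and each other gene of the same phases, with medians as bars, and the median and middle 50% of all 6818 measured genes as a grey line and band. The median bars lie at 0.26 and 0.08 for G1 and S and at -0.07 and -0.14 for G2 and mitosis, and the points of all 4 sets overlap over most of their range; in the deposited values the medians lie well below 0.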

How the data were processed

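Probe set signals of 2 Affymetrix arrays were used, 1 per treatment. The deposited values are linear intensity values for 22690 probe sets, produced with GCOS per the submitters' processing notes. How GCOS computed and scaled the signals is not given in the sources used here. Of the 22626 gene probe sets, 20380 carried 1 gene symbol in the platform annotation. The others, and 64 controls, stayed out of gene results.

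To centre the log2 ratio, its median among probe sets that exceeded the 50th percentile of deposited signals on each array (-1.50) was subtracted. The floor, the 50th percentile of scaled signals, was applied next: signals below it were raised to it, and genes below it on both arrays were not measured. The brightest probe set stood for a gene, which left 6818 measured genes. Genes were counted at 2-fold, and the number of arrays limits the precision. Alternatives were deposited, spiked-in, quantile and loess scaling, other floors, a pseudocount of 16, other probe set rules and other fold thresholds. The calculation was tested on simulated data.

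All members are named. From the lists of other cell cycle genes, the 5 highest and 5 lowest log2 ratios of each are named. The members and lists were chosen with earlier results of these data known. Python 3.11.15, numpy 2.4.6, pandas 2.3.3 and statsmodels 0.14.6 were used.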

Additional observations from a re-analysis of the deposited data

How the results depend on the processing

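No paired analysis was possible because the labels give 1 array for a treatment, and leaving out a replicate was likewise impossible. The sign of the group medians depends on the scaling. In the deposited values the medians were -1.20 for G1 and S and -1.56 for G2 and mitosis, with 0 members at least 2-fold higher and 36 lower (0.141% and 78.8% of all genes), and E2f1 and Mcm5 turned to -0.28 and -0.44. Spiked-in scaling gave -0.71 and -1.03, with 0 and 18 (0.473% and 50.7%). The G2 and mitosis median, -0.07, lay so near 0 that it turned to 0.041 with quantile scaling, 0.027 when the floor was the 67th percentile, 0.011 with loess scaling and 0.0099 without probe sets of shared targets. A 1.5-fold threshold gave 8 higher and 7 lower members (12.9% and 21.8% of all genes), and a 3-fold threshold 1 and 1 (0.983% and 2.96%), against 3 and 3. In the other settings each count stayed within 1.5 times of 3. The distance between both medians was positive in every setting, lowest (0.21) under the 67th percentile floor and highest (0.45) with the mean of all measured probe sets. For low signals the floor limits the ratio: Cdc6 was at 1.26 and E2f1 at 0.37 with the floor at the 67th percentile.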
